A study of Homo sapiens with 6 samples.

Results

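The genes described here are the DDX and DHX RNA helicases, chosen by name: every locus of the expression table that carries a symbol made of DDX or DHX and a number, without DDX58, DDX60 and DHX58. The rule gave 52 loci with 53 symbols, out of 74852 loci in the table, since DDX19A and DDX19B are joined in 1 locus. Of the 52 loci, 48 had a mean normalized read count of at least 10 over all libraries and were tested. DDX4, DDX25, DDX43 and DDX53, known mainly from the germline or testis, were below that minimum and are not considered further. The values are from MDA-MB-231, an established human line of triple-negative breast cancer (TNBC), which was transfected in 2 rounds either with 4 pooled control siRNAs (si-CTRL, 3 libraries) or with 4 pooled siRNAs that target SAM68 (si-SAM68, 3 libraries). By the labels the cells were harvested 24 h after the second round. Both groups share the cell line, the transfection reagent and the library protocol, and nothing in the labels says that the 3 libraries of a group came from separate cultures, so p-values measure the spread between these libraries. The comparison asks how the RNA of this helicase family stood after depletion of Sam68, the RNA-binding protein and splicing regulator encoded by KHDRBS1.

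DDX proteins (DEAD-box) and DHX proteins (DEAH-box) use ATP to open RNA duplexes or to remodel complexes of RNA and protein. DEAD-box helicases typically clamp onto a short duplex and force it apart locally, whereas DEAH-box helicases pull a strand through the protein. Members of the family act at nearly each step of RNA metabolism, from the assembly and release of the spliceosome and the export of mRNA to ribosome assembly, translation and decay, and many are housekeeping genes in dividing cells.

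The siRNAs are shown because the pool used against SAM68 carries short seed sequences that also occur in 3'UTRs of several helicase genes. They are given as the sense strand, from 5' to 3', and the capitals mark the 7 bases that pair with positions 2 to 8 of the guide strand, so that the same 7 letters in an mRNA are a match of the guide seed.
siSAM68_1: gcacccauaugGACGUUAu
siSAM68_2: gaaagagcgagUGCUGAUa
siSAM68_3: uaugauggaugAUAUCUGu
siSAM68_4: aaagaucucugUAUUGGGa
All 4 of these sequences were found in a KHDRBS1 transcript, and none of the 4 control siRNAs was.

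KHDRBS1 itself had normalized read counts of 15660, 14483 and 14737 in si-CTRL replicates 1, 2 and 3, and of 583, 602 and 670 in si-SAM68 replicates 1, 2 and 3, where a normalized read count is the number of reads on a locus divided by the size factor of its library. The targeted gene was low in each library labelled si-SAM68, with 4.13% of the si-CTRL mean left. Depth was between 52625492 and 82568487 reads per library, and the helicase loci took between 0.697% and 0.715% of the reads outside the rRNA locus. In si-SAM68 replicate 2 that rRNA locus held 15.1% of all reads, and in no other library more than 3.17%. For the helicases, si-CTRL replicate 1 stood further from its group than any other library, with a median absolute log2 deviation of 0.0984 from the group mean against 0.0257 to 0.0624 in the other 5. Log2 fold changes that moved by over 1.5 times without si-CTRL replicate 1 are given both ways for the helicases described one by one below. The markers VIM, CD44, KRT18 and EGFR were expressed, while ESR1, PGR, CDH1 and EPCAM had at most 15.2 normalized reads in any library, as is usual for this line. PTPRC, CD3E, ALB and PECAM1, markers of other cell types, had at most 16.2. In RNA from bulk cultures, fewer cells with a transcript and less of it per cell cannot be told apart.

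The helicases as a family were close to their si-CTRL level in si-SAM68 cells, and DHX33 alone passed the test. Each value is a count for a whole locus, so shifts between isoforms or exons of a gene cannot be seen here. With limma on log2(normalized read count + 1), 1 of the 48 loci (2.08%) had an adjusted p-value under 0.05, against 10.7% of all 18849 loci tested. Of those 18849 loci, 4397 carried no gene symbol. By direction, 4.47% of all loci were called higher and 6.23% lower, and the single helicase was lower. The thresholds of the study, an unadjusted p-value of at most 0.05 with a fold change of at least 1.5, were passed by 7.67% of all loci and by 0 helicases in limma, edgeR and DESeq2. Before adjustment, 9 of the 48 (18.8%) had a p-value under 0.05 in limma, against 27% of all loci. The groups did not overlap at 16 helicase loci (33.3%), 8 higher and 8 lower, near the background of 33.9% of all loci (16.6% higher and 17.3% lower). A fold change of at least 1.2 was seen at 5 helicase loci (10.4%), against 37.9% of all loci. Low and noisy loci add to that share, and over the 9242 loci whose mean lay within the helicases' range it was 24.5%. Of these loci, 39.2% did not overlap and 31.6% had an unadjusted p-value under 0.05 in limma.

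The sizes of the differences were small in both directions. The log2 fold changes ran from -0.49 to 0.29, with 23 above 0 and 25 below. Their median was -0.00659, against 0.00503 over all loci. The median size without regard to sign was 0.0806 for the helicases and 0.193 for all loci. Over the 9242 loci whose mean lay within the helicases' range it was 0.145. The plot of the helicases among all loci shows them in a narrow band at the well expressed end, where the spread between libraries is also smaller.

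**Figure D1:**
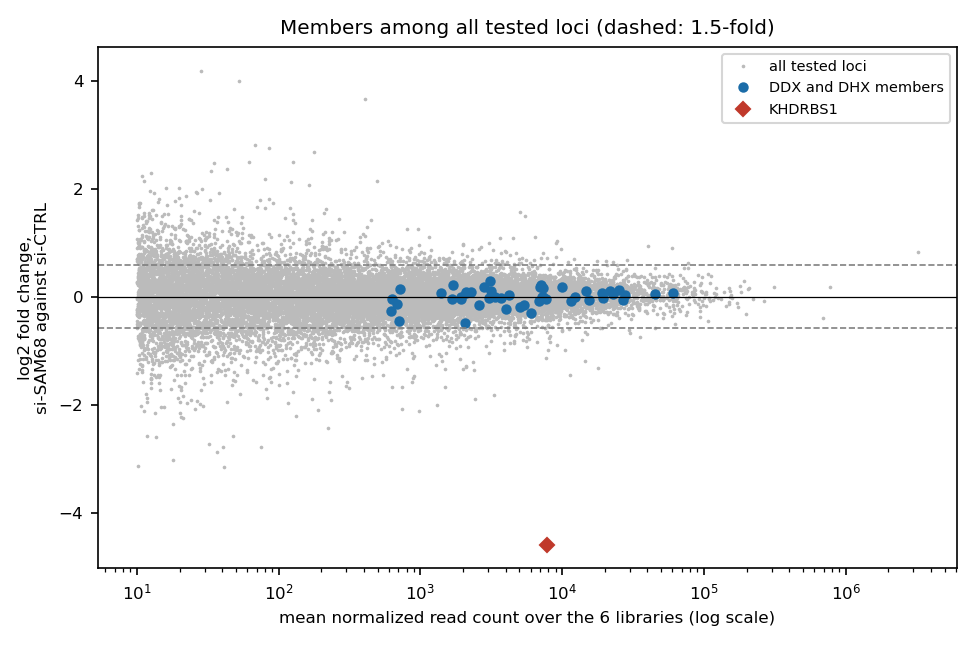
Log2 fold change of si-SAM68 against si-CTRL (vertical) over the mean normalized read count of the 6 libraries (horizontal, log scale). Grey points are all 18849 tested loci, blue points the helicases, the red diamond KHDRBS1 and the dashed lines a 1.5-fold change. The helicases lie between -0.49 and 0.29, while KHDRBS1 lies at -4.60.

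Since a p-value that misses the threshold does not show that 2 groups are alike, the 95% intervals of the log2 fold changes were read as well. The interval lay inside a 1.5-fold change in either direction for 46 of the 48 helicases (95.8%), against 56.2% of all loci. Of the 9242 loci whose mean lay within the helicases' range, 621.7 to 60710 normalized reads, it was 85.2%, and 13.1% of those loci had an adjusted p-value under 0.05. The exceptions were DHX33 and DHX34, whose intervals reach past a 1.5-fold decrease. Inside a 1.2-fold change lay 20 of the 48 (41.7%), against 20.9% of the loci of similar mean. For the rest the interval reached past a 1.2-fold change.

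**Figure D2:**
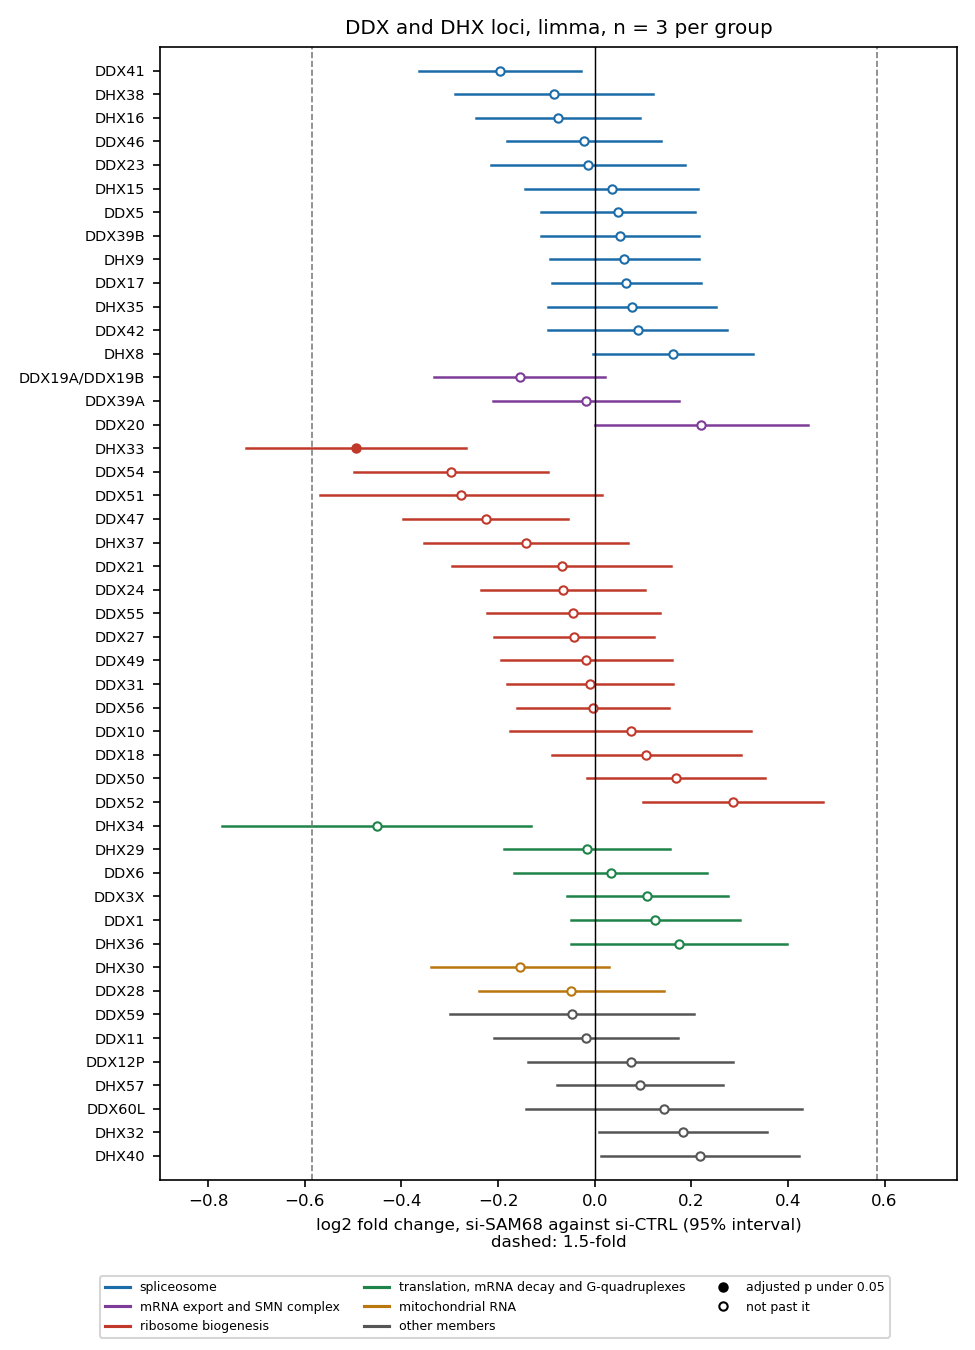
Log2 fold change of si-SAM68 against si-CTRL with its 95% interval from limma (n = 3 per group), 1 row per helicase locus other than DDX3Y, coloured by role; filled points have an adjusted p-value under 0.05 and dashed lines mark a 1.5-fold change. DHX33 is the filled point, and its interval and that of DHX34 cross the left dashed line.

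The helicases that work on the ribosome, the largest of the role groups, held the widest range. Of the 16 loci of this list, limma and edgeR called 1 (6.25%), DHX33, as lower and DESeq2 called 3, DHX33, DDX54 and DDX52. Over all loci limma and edgeR called 10.7% and DESeq2 14.8%. In limma 4 had a p-value under 0.05 before adjustment, which 27% of all loci had. These shares are the background for the lists below as well. The median log2 fold change of the 16 was -0.04, and 12 of them were below 0, as were 9258 of all 18849 loci. Of the 12, DDX21 and DDX27 were above 0 without si-CTRL replicate 1. DHX33, a DEAH-box protein known for promoting rRNA synthesis in the nucleolus (chromosome 17 of hg19, from 5344233 to 5372380), had 2786, 2212 and 2264 normalized reads in si-CTRL replicates 1, 2 and 3. In si-SAM68 replicates 1, 2 and 3 it had 1706, 1781 and 1643. Each si-SAM68 library was below each si-CTRL library, and si-CTRL replicate 1 was the highest of all. The means were 2420.5 ± 317.5 (SD, n = 3) and 1709.9 ± 69.0 (SD, n = 3), so that 70.6% of the si-CTRL level was left. On the log2 scale the difference was -0.49 with a standard error of 0.102 (limma, Benjamini-Hochberg adjusted p = 0.0156). Without si-CTRL replicate 1 it was -0.39 (adjusted p = 0.00499 from limma), so the decrease was also called without the library that stood apart. The call was lost without si-SAM68 replicate 1 (adjusted p = 0.0598 from limma) and without si-SAM68 replicate 3 (adjusted p = 0.0834 from limma), at log2 fold changes of -0.49 and -0.47. Without si-SAM68 replicate 2, the library rich in rRNA, it was -0.52 (adjusted p = 0.0483 from limma). Without si-SAM68 replicate 1, 2 or 3 limma called 923, 808 and 625 of all loci, against 2017 with all libraries.

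DDX54, a nucleolar protein that also binds nuclear receptors, had 7554, 6297 and 6156 normalized reads in the si-CTRL libraries and 5486, 5351 and 5372 in the si-SAM68 libraries. The groups did not overlap, with the si-SAM68 libraries close together and si-CTRL replicate 1 well above the rest. The log2 fold change was -0.30 with a standard error of 0.0896 (adjusted p = 0.0624 from limma), and without si-CTRL replicate 1 it was -0.20 with an adjusted p of 0.0399 from limma. DESeq2 gave an adjusted p of 0.0235. DDX47, a factor of pre-rRNA processing whose locus is joined with APOLD1, had 4539, 4215 and 4184 normalized reads against 3601, 3575 and 3887. These groups did not overlap either (log2 fold change -0.23, adjusted p = 0.0906 from limma), but reads of APOLD1 cannot be separated from those of DDX47. DDX51, which acts in the maturation of the large subunit's rRNA, had 564, 733 and 752 normalized reads in si-CTRL and 617, 545 and 521 in si-SAM68 cells. Here si-CTRL replicate 1 was low rather than high and the groups overlapped (log2 fold change -0.28, adjusted p = 0.209 from limma). Without that library the log2 fold change was -0.41, with an adjusted p of 0.0215 from limma.

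DDX52, the relative of a yeast helicase of small subunit assembly, stood at the other end. It had 2967, 2735 and 2715 normalized reads in the si-CTRL libraries and 3164, 3465 and 3643 in the si-SAM68 libraries. No si-SAM68 library reached down to the si-CTRL values, and their mean was 122.0% of that of si-CTRL. This gave a log2 fold change of 0.29 with a standard error of 0.0837 (adjusted p = 0.0571 from limma), and one of 0.33 without si-CTRL replicate 1 (adjusted p = 0.0141 from limma). DESeq2 gave an adjusted p of 0.0222. It was the highest value of the family, and it came from the same role as the lowest.

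**Figure D3:**
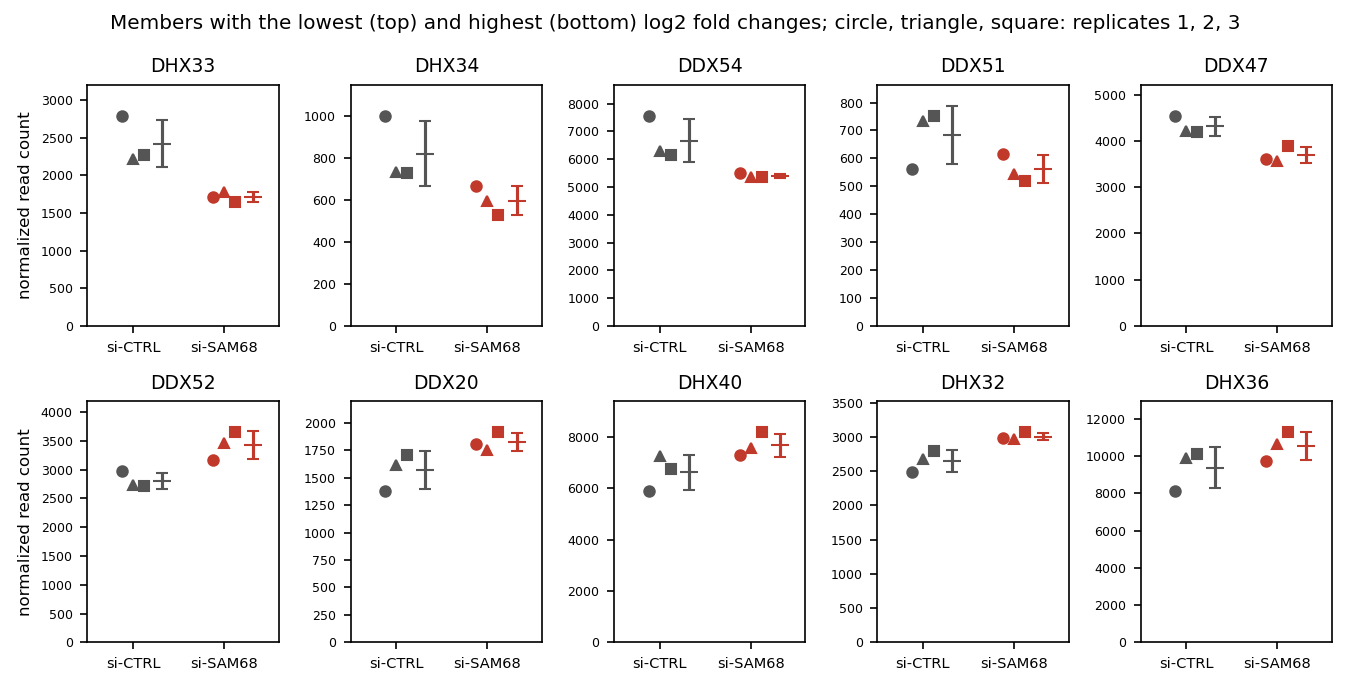
Normalized read count in each library (vertical, from 0) of the 5 helicases with the lowest (top) and the 5 with the highest (bottom) log2 fold change; circles, triangles and squares are replicates 1, 2 and 3, and the bars give mean ± SD (n = 3). si-CTRL replicate 1 is the highest si-CTRL library for DHX33, DHX34, DDX54, DDX47 and DDX52 and the lowest for DDX51, DDX20, DHX40, DHX32 and DHX36.

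DDX21 and DDX50 are paralogs of the nucleolus, DDX21 being known for coupling rRNA transcription with processing. DDX21 had 31437, 25990 and 25680 normalized reads in si-CTRL and 23675, 27256 and 28189 in si-SAM68 cells, with overlap. DDX50 had 6133, 6804 and 6772 against 6954, 7228 and 7977, without overlap. The log2 fold changes were -0.07 and 0.17, and that of DDX21 was 0.03 without si-CTRL replicate 1. Within a library, the log2 ratio of DDX21 to DDX50 was 2.36, 1.93 and 1.92 in si-CTRL and 1.77, 1.91 and 1.82 in si-SAM68 libraries. The ratio was lower in each si-SAM68 than in each si-CTRL library (difference of the means -0.24), with p = 0.1 by the two-sided exact permutation test, the smallest that 3 libraries against 3 allow, and 0.4 after adjustment over 4 pairs. Without si-CTRL replicate 1 the difference was -0.09.

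The splicing helicases showed no call. Of the 13 loci in this list 0 had an adjusted p-value under 0.05 in limma, edgeR and DESeq2, and 1 had an unadjusted p-value under 0.05 in limma. Their median log2 fold change was 0.05, and the range from -0.20 to 0.16. DHX9, also known as RNA helicase A, had the most reads of the family, in a locus joined with NPL. It had 59058, 60138 and 59030 normalized reads in si-CTRL and 60484, 62404 and 63146 in si-SAM68 libraries. The groups did not overlap, yet the difference was small (log2 fold change 0.06, 95% interval -0.09 to 0.22, adjusted p = 0.608 from limma). DDX5 and DDX17, the paralogs p68 and p72 that act as cofactors of splicing and transcription, were likewise near their si-CTRL level. DDX5 had 44349, 43348 and 45830 against 45311, 44750 and 48074 normalized reads, with overlap. DDX17 had 19347, 18080 and 18928 against 19107, 20197 and 19672, also with overlap. Their log2 ratio differed by -0.02 between the groups (exact permutation test, two-sided, p = 0.7), by -0.04 without si-CTRL replicate 1 and by 0.02 without si-SAM68 replicate 2.

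DHX15, which helps to take the spliceosome apart, had 25092, 28687 and 29030 normalized reads in si-CTRL and 27304, 28336 and 29063 in si-SAM68 libraries. The values overlapped, and the log2 fold change was 0.04 (95% interval -0.14 to 0.21). It was -0.03 without si-CTRL replicate 1. DDX39B (UAP56), a spliceosome and mRNA export factor in a locus joined with ATP6V1G2, had a log2 fold change of 0.05 with overlap. DDX42, a splicing helicase joined with MAP3K3 in its locus, had 0.09, also with overlap, and 0.15 without si-CTRL replicate 1. Named after their values were seen, DDX41 had the lowest value of the list at -0.20 and DHX8, which releases spliced mRNA from the spliceosome, the highest at 0.16. Neither passed the test (adjusted p = 0.129 and 0.192 from limma), although in both the groups did not overlap.

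In the group of mRNA export and the SMN complex, which assembles spliceosomal snRNPs, 0 of 3 tested loci were called by limma, edgeR or DESeq2, and 1 had an unadjusted p-value under 0.05. That locus was DDX20 (Gemin3), the helicase of the SMN complex. It had 1377, 1617 and 1710 normalized reads in si-CTRL and 1802, 1751 and 1911 in si-SAM68 libraries. All si-SAM68 libraries were higher, with a log2 fold change of 0.22 and a standard error of 0.0986 (adjusted p = 0.184 from limma). It was 0.13 without si-CTRL replicate 1, the lowest. DDX19A and DDX19B, export helicases at the nuclear pore, share a locus with 6235, 5484 and 5394 against 5142, 5069 and 5125 normalized reads. The si-SAM68 values were lower without overlap (log2 fold change -0.16, adjusted p = 0.241 from limma), and without si-CTRL replicate 1 the log2 fold change was -0.09. The paralogs could not be told apart. DDX39A, the export factor closest to DDX39B, had a log2 fold change of -0.02 with overlap, and the log2 ratio of DDX39A to DDX39B differed by -0.07 (exact permutation test, two-sided, p = 0.4). These were -0.10 and -0.14 without si-CTRL replicate 1.

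Among the helicases of translation, decay and G-quadruplexes, 0 of 7 loci were called by limma and edgeR and 1 by DESeq2, with 1 unadjusted p-value under 0.05 in limma. The locus was DHX34, which takes part in nonsense-mediated decay (chromosome 19 of hg19, from 47852538 to 47889887). It had 1001, 734 and 729 normalized reads in si-CTRL and 665, 597 and 527 in si-SAM68 libraries. The groups did not overlap, and si-CTRL replicate 1 was again far above the rest. The means were 821.5 ± 155.6 and 596.4 ± 68.8 (SD, n = 3), a log2 fold change of -0.45 with a standard error of 0.143 (adjusted p = 0.0732 from limma). With the replicate number as a block the adjusted p was 0.0382 from limma, and with DESeq2 0.0206, both past the threshold. Without si-CTRL replicate 1 the log2 fold change was -0.30 (adjusted p = 0.0921 from limma).

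The other members of that group were level or slightly higher. DHX36, which unwinds G-quadruplexes, had 8105, 9917 and 10113 normalized reads in si-CTRL and 9731, 10639 and 11271 in si-SAM68 libraries. The groups overlapped, and si-CTRL replicate 1 was the lowest (log2 fold change 0.17, adjusted p = 0.297 from limma). Without that library it was 0.07. DDX1, a subunit of the tRNA ligase complex, had 22301, 24828 and 25396 against 25864, 25502 and 27651, without overlap (log2 fold change 0.13, adjusted p = 0.336 from limma), and 0.07 without si-CTRL replicate 1. DDX3X, a factor of translation initiation, had a log2 fold change of 0.11 with overlap (adjusted p = 0.383 from limma), and 0.07 without that library. Its paralog DDX3Y is counted here but given no value.

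Among the 4 tested loci that are little characterised, limma, edgeR and DESeq2 called 0, and 2 had an unadjusted p-value under 0.05 in limma. DHX40 had 5885, 7236 and 6734 normalized reads in si-CTRL and 7304, 7565 and 8170 in si-SAM68 libraries. DHX32 had 2483, 2671 and 2797 against 2981, 2969 and 3063. In both genes the si-SAM68 libraries were all higher, with log2 fold changes of 0.22 and 0.18 (adjusted p = 0.160 and 0.167 from limma). That of DHX40 was 0.14 without si-CTRL replicate 1. DDX11, a DNA helicase of chromosome cohesion, and its pseudogene DDX12P had log2 fold changes of -0.02 and 0.07 with overlap, and that of DDX11 was 0.04 without si-CTRL replicate 1. Reads of this pair may be split between near-identical copies, and their log2 ratio differed by -0.09 (exact permutation test, two-sided, p = 0.2). The 2 loci of mitochondrial RNA, DDX28 and DHX30, had -0.05 and -0.15 (DDX28 -0.12 without si-CTRL replicate 1), without a call by limma, edgeR or DESeq2 and without an unadjusted p-value under 0.05.

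By the prefix, 0 of 33 tested DDX loci and 1 of 15 DHX loci were called by limma. edgeR gave the same counts, and DESeq2 called 2 DDX and 2 DHX loci. In limma 5 DDX and 4 DHX loci had a p-value under 0.05 before adjustment, which 27% of all loci had. The difference between the prefixes was not tested.

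Levels between genes were compared per kilobase of exon, for the 42 tested loci with a single gene, leaving out DDX3Y. On this scale DDX5 had the highest level, 16097 ± 452 normalized reads per kilobase in si-CTRL cells (SD, n = 3), followed by DHX15 with 9219 ± 729 and DDX1 with 8435 ± 575. The means ± SD of DHX15 and DDX1 overlapped, but within each library DHX15 was the higher. DDX21 (5518 ± 645) and DDX39A (4738 ± 443) came next, and their means ± SD overlapped. DDX21 was the higher within each si-CTRL library, and the lower in si-SAM68 replicate 1. The lowest was DDX60L with 95.1 ± 12.4, and 22 of the 42 were above 1000. DHX33, at 431 ± 56.5, and DHX34, at 188 ± 35.6, were among the less abundant helicases.

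Matches of the SAM68 guide seeds were looked up in the longest annotated 3'UTR of each gene (GENCODE 29, GRCh38, the strand of the transcript). This look-up was added with the values known. A match was found in 11 of 48 helicase genes with a 3'UTR (22.9%), which include genes of joined loci. The background, called all genes here, was 11967 tested genes with a 3'UTR and a locus of their own, without KHDRBS1. A match was found in 29.7% of them. The median 3'UTR was 1115 bases in the helicases and 1362 in all genes. Of the 5 helicases with the lowest log2 fold change 4 carried a match, and of the 5 with the highest 0. Both sets were picked by their values, so this split is only a description and was not tested. The sites of the 4 genes with a match are shown with the 7 matching bases in capitals and 8 bases on each side.
DHX33, siSAM68_3, chr17:5441437-5441459, minus strand: cgaaacccATATCTGgaagaatc
DHX33, siSAM68_4, chr17:5441692-5441714, minus strand: tagtttttTATTGGGctttttta
DHX34, siSAM68_2, chr19:47382264-47382286, plus strand: gcctcacaTGCTGATacacactg
DDX51, siSAM68_2, chr12:132139195-132139217, minus strand: cagagcagTGCTGATcactggat
DDX47, siSAM68_2, chr12:12829723-12829745, plus strand: tcttacagTGCTGATgtcaagac
DDX18, siSAM68_3, chr2:117830944-117830966, plus strand: agcaaggaATATCTGgtgtttct
DDX46, siSAM68_2, chr5:134828804-134828826, plus strand: ttctatctTGCTGATttttttta
The last 2, DDX18 and DDX46, are shown beside them because they carry the same 7 letters as DHX33 and as DHX34, and had log2 fold changes of 0.11 and -0.02. Without si-CTRL replicate 1 DDX18 was at 0.02 and DDX46 at -0.01, and without si-SAM68 replicate 1 DDX46 was at 0.01.

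The 10 helicases with a match and a value given here had a median log2 fold change of -0.06, with 7 below 0 and 3 above, and the 36 without a match one of 0.01, with 18 on each side. When si-CTRL replicate 1 was left out, the median of the 10 was -0.00206, with 5 below 0, and that of the 36 was 0.04. With each of the other libraries left out, the median of the 10 lay between -0.11 and -0.05. Over all genes the medians were -0.00810 with a match and -0.00788 without. With a match 1823 genes were below 0 and 1731 above, and without a match 4308 were below and 4103 above. Higher or lower, 16.6% of the genes with a match were called against 12% of those without. These 2 shares were not split by direction or by the length of the 3'UTR. DDX27, DHX38, DHX57 and DDX60L, named for their matches, had -0.04, -0.08, 0.09 and 0.14, and without si-CTRL replicate 1 DDX27 and DHX38 were both at 0.01. DDX54 had no match and was the third lowest of the family. Matches of the control pool were found in 56.2% of the helicases and in 56.0% of all genes, and DHX33 had 4 of them beside its 2 of the SAM68 pool. Of the 5 lowest helicases, DHX33 and DDX51 carried a match of the control pool. Of the 5 highest, DDX52, DDX20, DHX40 and DHX36 did. The part of the matches in these values was not tested, and a 7-base match in an annotated 3'UTR does not say that the site is used in these cells.

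**Figure D4:**
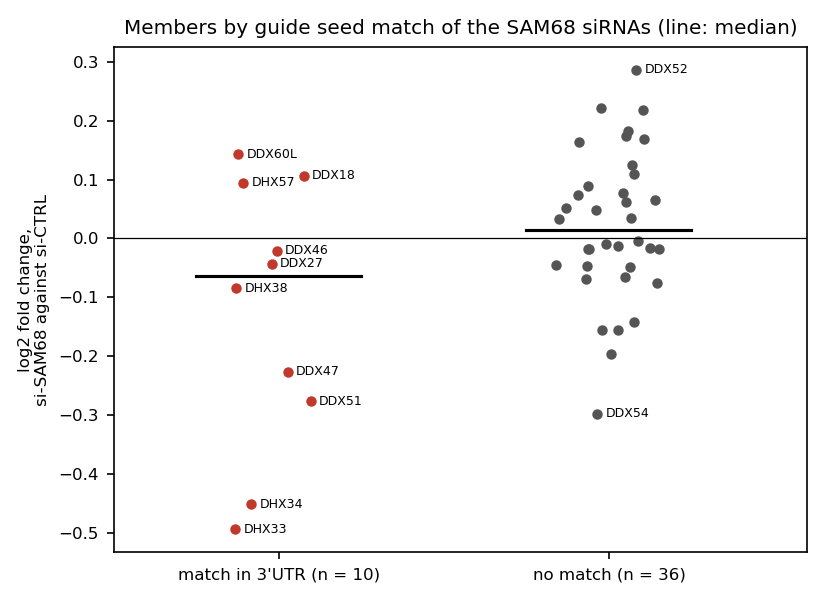
Log2 fold change of si-SAM68 against si-CTRL (vertical) of helicases with and without a 7-base match of a SAM68 guide seed in the 3'UTR; each point is a locus and the black line the median of its group. DHX33, DHX34, DDX51 and DDX47 are the lowest of the 10 with a match, and 3 of the 10 lie above 0.

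Partners of the helicases were examined by lists of known function. Of 15 tested loci of other RNA helicases, outside the DDX and DHX names, 2 were called by limma. ZNFX1, an interferon-induced helicase of antiviral defence, fell from 2636.4 ± 184.2 to 1176.2 ± 72.7 normalized reads (SD, n = 3; log2 fold change -1.16, adjusted p = 0.000182 from limma). Its locus (chromosome 20 of hg19, from 47854486 to 47894963) overlaps that of DDX27 (from 47835832 to 47860607). These loci can therefore share reads. YTHDC2, a helicase that reads methylated RNA, rose from 6712.7 ± 740.3 to 8602.3 ± 497.8 (log2 fold change 0.36, adjusted p = 0.0383 from limma). YTHDC2 lost its call without si-CTRL replicate 3 (adjusted p = 0.0538 from limma) and without si-SAM68 replicate 1, 2 or 3 (adjusted p = 0.0830, 0.108 and 0.159 from limma), while ZNFX1 was called in each of these fits. Over all loci limma called 1103, 923, 808 and 625 in these fits, in that order, against 2017 with all libraries. The median of this list was 0.06. The decrease of ZNFX1 was more than 2-fold, a size that no DDX or DHX locus reached.

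Of 27 cofactors, proteins that bind or activate a helicase, 3 were called by limma. PDCD4, an inhibitor of the helicase EIF4A, rose from 4727.1 ± 135.9 to 6222.6 ± 112.3 normalized reads (log2 fold change 0.40, adjusted p = 0.00790 from limma). EIF4G2, a scaffold for EIF4A, fell from 105419 ± 9115 to 81152 ± 3904 (log2 fold change -0.38, adjusted p = 0.0242 from limma). PINX1, a G-patch protein known to bind DHX15, fell from 2122.5 ± 139.2 to 1619.1 ± 41.9 in a locus joined with SOX7 (log2 fold change -0.39, adjusted p = 0.0178 from limma). With the replicate block EIF4G2 was no longer called (adjusted p = 0.0508 from limma), which leaves 2 of the 27. Without si-SAM68 replicate 1, 2 or 3 neither EIF4G2 (adjusted p = 0.0920, 0.0899 and 0.0706 from limma) nor PINX1 (adjusted p = 0.0516, 0.0893 and 0.0780 from limma) was called, while PDCD4 was called in each of these fits. Over all loci these fits gave 923, 808 and 625 calls, in that order, against 2017 with all libraries. The median of this list was 0.02. Of 16 partners in the TREX export complex and the SMN complex, 0 were called by limma or edgeR and 2 by DESeq2, ALYREF and THOC6, and 4 had an unadjusted p-value under 0.05 in limma. Of these lists, the other helicases (13.3%) and the cofactors (11.1%) had shares of calls near the 10.7% of all loci.

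How the calls among the helicases depended on the libraries and the test is shown by the plot of adjusted p-values. Without si-CTRL replicate 1, limma called 4 of the 48 (DHX33, DDX51, DDX52 and DDX54), at 15.1% of all loci, and without si-SAM68 replicate 1 or replicate 3 it called 0, with 9 and 4 unadjusted p-values under 0.05. edgeR on the recovered reads called 1 and DESeq2 4 (DHX33, DHX34, DDX52 and DDX54), at 10.7% and 14.8% of all loci. In each of these fits the share of helicases called was below that of all loci.

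**Figure D5:**
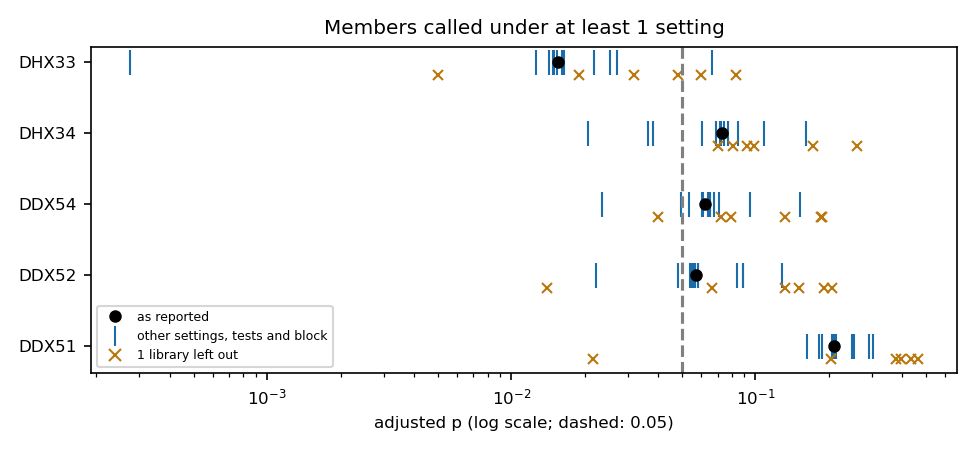
Adjusted p-value (horizontal, log scale) of the 5 helicases that were called under at least 1 setting; black circles are the values as reported, blue ticks other settings, tests and the block, and brown crosses the fits with 1 library left out. Points left of the dashed line at 0.05 are called, which holds for 15 of the 18 alternatives in DHX33 and for at most 3 in each of the other 4.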

How the data were processed

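RNA-seq of 6 libraries was used, and groups and replicate numbers were taken from the labels. The authors deposited normalized read counts, a signal per locus of the FAST DB annotation (hg19), made by dividing reads by the size factor of the library. The submitters' processing notes name STAR 2.4.0 and DESeq2, and whether strand was used in counting is not given in the sources used here. Loci that overlap, and paralogs, can therefore share reads.

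limma 3.58.1 in R 4.3.3 (lmFit, eBayes with a trend) was run on log2(normalized read count + 1) over 18849 loci whose mean was 10 or more, with Benjamini-Hochberg adjustment over all of them. Fold changes of low genes are understated on this scale. Divided by a library's smallest step, 100% of its values were whole within 0.01 reads, and on these recovered reads edgeR 4.0.16 called 2026 loci and DESeq2 1.42.0 2789 (adjusted p-value under 0.05). For si-SAM68 replicate 1 this step (1.01) is near to 1, so values of very few reads are almost whole before the division. At loci with more reads they are not, such as 3217.69 for DDX11, and the check rests on those. Replicates were separate libraries, with a chi-square per degree of freedom of 12.7 or more within a group. The script was tested on simulated counts.

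Deviations from the group means correlated at 0.105, 0.231 and 0.125 between libraries of the same replicate number and at -0.125 to 0.00687 otherwise. The deviations cancel out within a group, which ties these correlations to each other. They therefore do not settle whether the numbers pair the libraries. The replicate block was fitted as an alternative.

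Members and lists were chosen with earlier results of these data known. Named are KHDRBS1, called helicases, the 5 largest fold changes in each direction, the 5 helicases with the most reads, paralog pairs, members sharing a locus, and called genes of the other lists; any others were chosen after their values were seen. The sequences of the siRNAs are those given by the study, and 3'UTRs and exon lengths are from GENCODE 29.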

Additional observations from a re-analysis of the deposited data

How the results depend on the processing

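The number of helicases with an adjusted p-value under 0.05 was 1 as reported, at 10.7% of all loci. It was 2 with a minimum mean of 50 (14.4% of all loci) and 2 with quantile normalization (10.8%). With eBayes without a trend it was 0 (4.77%), with 5 unadjusted p-values under 0.05, counted for the helicases only. It was 2 with the replicate block (9%) and 4 with DESeq2 (14.8%). edgeR with the replicate block, which was added after seeing the data, gave 2 (9.14%). With each library left out the number lay between 0 and 4, at 3.32% to 15.1% of all loci. The block added DHX34 and changed no other call among the helicases. Over all loci the count of 2017 became 899 without a trend and lay between 625 and 2839 with a library left out. The median log2 fold change of the helicases, -0.00659 as reported, lay between -0.00311 and 0.0233 with each library left out, so that its sign changed. The count past the study's thresholds was 0 under each of the 18 alternatives, and the count of intervals inside 1.5-fold between 45 and 47 wherever limma or DESeq2 gave one. Of 47 helicases compared, 31 kept the sign of the log2 fold change under all 18 alternatives, 16 did not, and 5 were called under at least 1. Each tested helicase had a mean of at least 621.7 normalized reads, and there were 3 libraries per group. The causes of these shifts were not tested.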
